A study of Rattus norvegicus with 12 samples.

Results

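The genes of glycolysis and of the cellular response to low oxygen were followed in rat dorsal root ganglia during the first 9 h after the sciatic nerve was cut. The group held 40 listed gene names, chosen by name for their place in the pathway, and 39 of them were found among the gene names of the array, out of 29623 gene names tested. The name Pkm was not among the array's names, but the older rat name of the same gene, Pkm2, was. Each of the 39 passed the filter on dim probes. Total RNA came from ganglia of lumbar levels 4 to 6 of male Sprague-Dawley rats of 180 to 220 g, all of which had lost 1 cm of the left sciatic nerve under anaesthesia. Ganglia were taken 0.5, 3, 6 or 9 h after the resection, 3 arrays hybridised with Cy3-labelled RNA stood for each time, and the labels describe 24 rats in 4 groups of 6. No uninjured or sham-operated ganglia were among the samples, so the 0.5 h arrays served as the reference, and the anaesthesia and surgery were common to all 4 times. The labels do not say which rats gave the RNA of an array, so the p-values below measure the spread between these arrays, which may be technical.

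Glycolysis splits glucose into pyruvate. Glucose enters the cell through the carriers encoded by Slc2a1 and Slc2a3, hexokinases trap it as a phosphate, phosphofructokinase commits it to breakdown, and lactate dehydrogenase turns the pyruvate that is not sent to the mitochondria into lactate, which leaves through the carriers encoded by Slc16a1 and Slc16a3. When oxygen is low, the hypoxia-inducible factors, each an alpha subunit (Hif1a, Epas1) joined to the partner encoded by Arnt, bind short DNA motifs near many of these genes and raise their transcription. When oxygen is present, the prolyl hydroxylases encoded by Egln1, Egln2 and Egln3 mark the alpha subunits for destruction, a step on the protein that an RNA array does not see. Sensory ganglia hold large neurons wrapped by satellite glia and are supplied by their own capillaries.

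Levels are given on a log2 scale as the scanner software's processed signal of a gene's probe minus the 75th percentile of that array, so that 0 is the level of that percentile and levels of different probes are not compared with each other. A difference is the later time minus the earlier one on this log2 scale. It was called changed where limma's moderated test, adjusted by Benjamini-Hochberg over all 29623 gene names, gave an adjusted p under 0.05. Of the 39 members, 35 were well above background on 12 of 12 arrays. Hk2, Pfkfb3 and Arnt were well above background on 0 of 3 arrays at 0.5 h, and Slc2a3 on 1 of 3, while all 4 were above it on the 9 later arrays. Of all probes, 82.3% to 85.3% were well above background on the later arrays, against 63.2% to 67.5% at 0.5 h, and the median local background was 37 to 45 units later, against 64 to 86 units at 0.5 h. The 0.5, 3 and 9 h arrays each lay on a slide of their own, so slide and time cannot be told apart. At 6 h, replicate 1 lay on another slide than replicates 2 and 3. The 3 and 6 h arrays were scanned on the same day, the 0.5 h and the 9 h arrays each on a day of their own. In every comparison with 0.5 h or 9 h, scan day and time therefore cannot be told apart either. The ganglion label was borne out by 11 sensory neuron markers (such as Prph and Scn10a), which were well above background on 12 of 12 arrays. Skeletal muscle markers were also measured, 14 of 14 well above background on 12 of 12 arrays, with a mean level between 1.81 and 5.12.

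The pathway did not move as a block. Among the 39 members, 7 passed the test at 3 h over 0.5 h, which is 17.9% of them beside 22.7% of all gene names. Of these 5 rose and 2 fell, where 9.69% of all gene names rose and 13% fell. At 6 h over 0.5 h 2 rose and 1 fell (7.69% beside 13.4% of all, of which 4.07% rose and 9.31% fell). At 9 h over 0.5 h 10 rose and 1 fell (28.2% beside 33.4% of all, with 22.7% up and 10.7% down). Some of these risers passed the filter on dim probes only through the later arrays. They were Slc2a3 and Arnt at 3 h, Arnt at 6 h, and Hk2, Pfkfb3, Slc2a3 and Arnt at 9 h. The same filter was applied to all gene names. Between the later times, 0 rose and 2 fell at 6 h compared with 3 h (5.13% beside 10.4% of all, with 5.93% up and 4.45% down). Comparing 9 h with 6 h, 5 rose and 0 fell (12.8% beside 25.1% of all, with 19.2% up and 5.93% down). Comparing 9 h with 3 h, 3 rose and 3 fell (15.4% beside 23.5% of all, with 17.7% up and 5.87% down). The arrays of both times did not overlap for 19, 12 and 17 members at 3, 6 and 9 h over 0.5 h, beside 40.7%, 37.1% and 48.7% of all gene names. They did not overlap for 11 members at 6 h over 3 h, 7 at 9 h over 6 h and 9 at 9 h over 3 h, beside 35%, 44.3% and 40% of all. The test for any difference over the 4 times called 14 members (35.9% beside 43.6% of all gene names). In none of the 7 tests did the share of members exceed that of all gene names. The members' median difference from 0.5 h was 0.11 at 3 h, 0.00 at 6 h and 0.10 at 9 h, against 0.02, -0.04 and 0.10 for all gene names. In all, 16 members passed the test in at least 1 of the 6 comparisons, 23 in none, and 26 stayed within 0.3 log2 units of their 0.5 h mean at each later time.

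The split by direction moved with the scaling. When the array median replaced the 75th percentile as the scale, the median difference of all gene names became 0.10 at 3 h and -0.02 at 9 h over 0.5 h, and -0.11 at 9 h over 6 h where it had been 0.11. Members called under median scaling were 12 higher and 0 lower at 3 h over 0.5 h (15.9% and 9.5% of all gene names), 5 and 0 at 6 h (8.67% and 5.64%), and 5 and 5 at 9 h (14.5% and 17.2%). They were 3 and 10 comparing 9 h with 6 h (11.9% and 22.2% of all), and 2 and 13 comparing 9 h with 3 h (11.1% and 22.6%). At 6 h over 0.5 h the members split 5 to 1 under quantile scaling (7.31% and 5.83% of all) and 4 to 1 under cyclic loess (12.1% and 9.63%). At 9 h over 3 h they split 1 to 3 under both, with 9.76% and 9.94% of all under quantile and 12.4% and 7.1% under cyclic loess. Normexp background correction left few calls in the whole table, 2.31%, 0.00338% and 1.43% of all gene names at 3, 6 and 9 h over 0.5 h, 1.07% at 6 h over 3 h, 0.55% at 9 h over 6 h and 0.878% at 9 h over 3 h, and 0, 0, 1, 0, 1 and 3 members. Of the 34 called differences of members it kept 4, those of Car9 at 9 h over 3 and 6 h and those of P4ha1 at 9 h over 0.5 and 3 h.

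**Figure D1:**
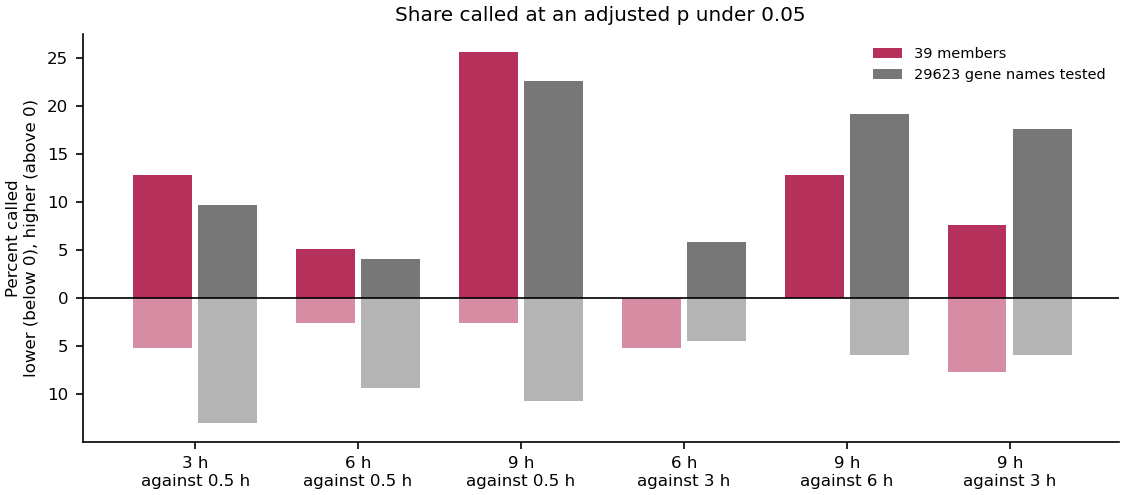
Percent of the 39 members (red) and of the 29623 gene names tested (grey) called at an adjusted p under 0.05 in each of 6 comparisons, with genes higher at the later time above 0 and genes lower at the later time below it. The red bars are the taller ones for higher calls in the 3 comparisons with 0.5 h and the shorter ones for higher calls in the 3 comparisons between later times. Higher calls over 0.5 h include members (Hk2, Pfkfb3, Slc2a3, Arnt) that passed the filter on dim probes only through the later arrays.

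**Figure D2:**
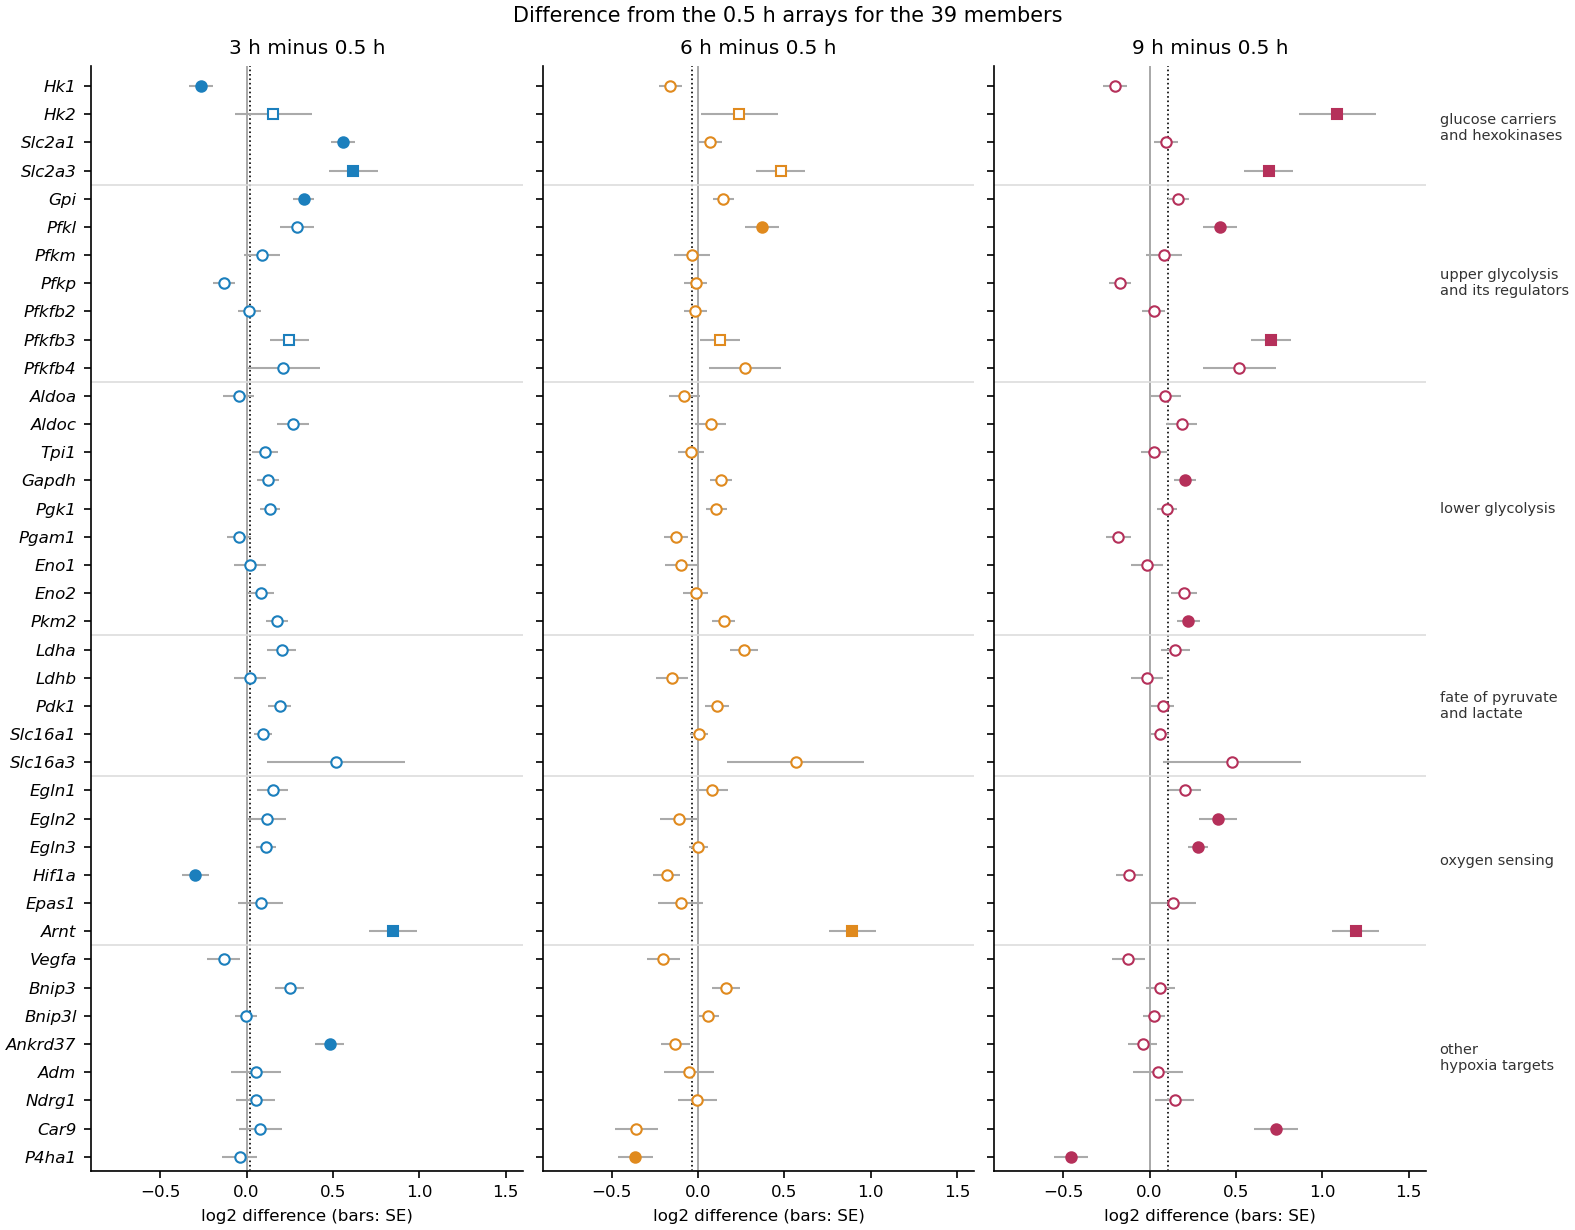
Log2 difference from the 0.5 h arrays for each of the 39 members, grouped by role, at 3, 6 and 9 h (bars are standard errors, n = 3 arrays per time). Filled symbols passed the test, squares mark members below background on 2 or 3 of the 0.5 h arrays, and the dotted line is the median of all gene names, 0.02, -0.04 and 0.10. Most of the lower glycolysis rows sit near the dotted lines.

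Among the glucose carriers, Slc2a1, which encodes the carrier of endothelial and perineurial barriers and of glia, was high at 3 h alone among the 4 times. Its levels were 2.90, 2.76 and 2.76 at 0.5 h, 3.37, 3.35 and 3.36 at 3 h, 2.98, 2.79 and 2.85 at 6 h, and 2.91, 2.97 and 2.83 at 9 h. The 3 arrays of 3 h lay above the other 9, which overlapped among themselves. Slc2a1 was 1.47-fold higher at 3 h than at 0.5 h (log2 difference 0.56, SE 0.07, limma adjusted p = 0.000538). It was then lower at 6 h than at 3 h by a log2 difference of -0.49 (SE 0.07, limma adjusted p = 0.00167), and at 9 h than at 3 h by -0.46 (limma adjusted p = 0.00124). These 3 calls held under each alternative but normexp background correction, where the differences were 0.54, -0.55 and -0.54 with limma adjusted p of 0.0727, 0.107 and 0.0815.

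Some endothelial markers moved with Slc2a1 at 3 and 6 h. Of 8 measured, Cdh5 and Cldn5, junction proteins of endothelium, rose at 3 h against 0.5 h (0.36 and 0.30) and fell at 6 h against 3 h (-0.45 and -0.39). Kdr, a receptor for vascular endothelial growth factor, fell at 3 h (-0.34). Of all gene names 9.69% rose and 13% fell at 3 h. At 9 h Cldn5 was lower than at 3 h (-0.30), as Slc2a1 was, but Cdh5 was higher than at 6 h (0.59), where Slc2a1 was not called. The mean level of the 8 endothelial markers was -1.27 to -1.20 at 3 h against -1.33 to -1.16 at 0.5 h, and their summed linear level was 16.5 to 17.9 at 3 h against 17.7 to 18.4 at 0.5 h. Of the 8, 7 were well above background on 12 of 12 arrays, and their part in the Slc2a1 result was not tested. Scn10a, a sodium channel of pain-sensing neurons and 1 of the 11 neuronal markers, also rose at 3 h (0.36) and fell at 6 h compared with 3 h (-0.30). Of 6 satellite glia markers, only Slc1a3, a glutamate carrier, passed at 3 h against 0.5 h, where it rose (0.35). The mean level of the 6 was 0.69 to 0.82 at 3 h against 0.48 to 0.71 at 0.5 h. Their summed linear level was 56.9 to 76.5 at 3 h against 65.8 to 71.6 at 0.5 h. In whole ganglia, fewer cells of a type and less RNA per cell cannot be told apart, here and in the results that follow.

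Slc2a3, the main glucose carrier of neurons, was dim. Its levels were -4.64, -4.60 and -4.78 at 0.5 h, -4.26, -4.09 and -3.81 at 3 h, -3.99, -4.14 and -4.45 at 6 h, and -3.85, -4.05 and -4.05 at 9 h. All later arrays lay above the 0.5 h arrays. Its differences of 0.62 (limma adjusted p = 0.0122) at 3 h and 0.69 (limma adjusted p = 0.00505) at 9 h rest on a 0.5 h level that 1 of 3 arrays measured above background. Without background subtraction they shrank to 0.15 and 0.09 and did not pass (limma adjusted p 0.253 and 0.561), and capping the local background in normexp gave 0.25 and 0.14, also not past the threshold. The 9 h difference was 0.42 under quantile scaling (limma adjusted p 0.0541) and 0.29 under cyclic loess (0.125).

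Hk1, the housekeeping hexokinase of neurons, had 5.32, 5.33 and 5.40 at 0.5 h, 5.15, 5.11 and 5.0 at 3 h, 5.24, 5.15 and 5.18 at 6 h, and 5.07, 5.11 and 5.27 at 9 h. All later arrays lay below those of 0.5 h, and Hk1 fell at 3 h by a log2 difference of -0.26 (SE 0.07, limma adjusted p = 0.023). A second, dimmer Hk1 probe gave a difference of 0.00, and the mean of both probes did not pass (-0.13), nor did median scaling (-0.18, limma adjusted p 0.109) or a fit of these 2 times alone (-0.26, 0.0607). The Hk1 call was also lost without 0.5 h replicate 2 (-0.27, limma adjusted p 0.0519), 0.5 h replicate 3 (-0.24, 0.0717) or 3 h replicate 3 (-0.22, 0.0704).

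Hk2, the inducible hexokinase of muscle and other insulin-responsive tissue and a hypoxia target, was high at 9 h. Its levels were -6.26, -5.87 and -6.18 at 0.5 h, -6.37, -5.88 and -5.59 at 3 h, -5.81, -5.51 and -6.27 at 6 h, and -4.99, -4.97 and -5.09 at 9 h. The 9 h arrays lay above the other 9 and close together. Hk2 was higher at 9 h than at 6 h by 0.85 (SE 0.22, limma adjusted p = 0.0187) and than at 3 h by 0.93 (limma adjusted p = 0.0134), all on arrays where it was well above background. Against 0.5 h, where 0 of 3 arrays measured it above background, no fold is given. It is a dim gene, and under quantile scaling the difference of 9 h from 6 h was 0.30 (limma adjusted p 0.378) and under cyclic loess scaling 0.39 (0.242). From 3 h it was 0.46 (0.184) and 0.59 (0.0907). The call against 6 h was lost, too, without 6 h replicate 3 (0.65, 0.0692) or 9 h replicate 2 (0.82, 0.0539).

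**Figure D3:**
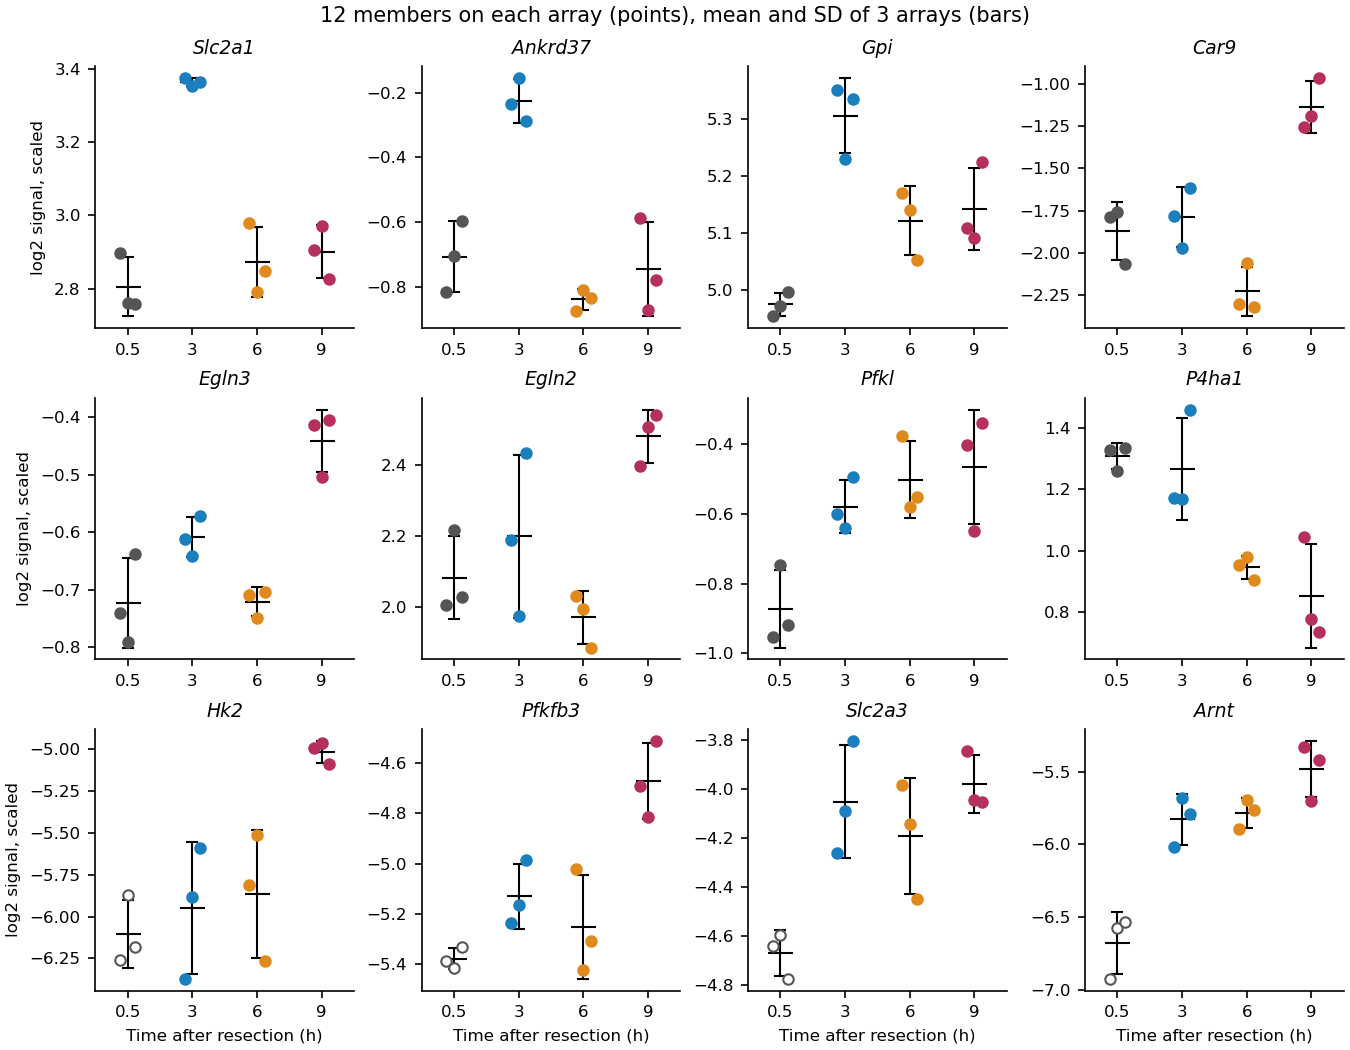
Scaled log2 signal of 12 members on each of 12 arrays against time after resection (points), with the mean and SD of 3 arrays (bars). Open points mark a time at which fewer than 3 arrays were well above background for that member, and each panel has its own axis. Slc2a1, Ankrd37 and Gpi are highest at 3 h, Car9, Egln3, Hk2 and Pfkfb3 at 9 h, and P4ha1 is lowest at 6 and 9 h.

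In upper glycolysis, Gpi, which turns glucose 6-phosphate into fructose 6-phosphate, had 4.95, 4.97 and 5.0 at 0.5 h, 5.35, 5.23 and 5.33 at 3 h, 5.17, 5.14 and 5.05 at 6 h, and 5.11, 5.09 and 5.22 at 9 h. The 3 h arrays lay above the other 9, and the 0.5 h arrays below them. At 3 h it rose 1.26-fold (log2 difference 0.33, SE 0.06, limma adjusted p = 0.00454). A second Gpi probe gave 0.17 at 3 h and did not pass there (adjusted p 0.143 over all probes), but passed at 9 h (0.31, adjusted p 0.0138 over all probes).

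Pfkl, the liver-type subunit of phosphofructokinase, was the one phosphofructokinase subunit of 3 to pass. Its levels were -0.95, -0.75 and -0.92 at 0.5 h, -0.60, -0.64 and -0.50 at 3 h, -0.38, -0.58 and -0.55 at 6 h, and -0.40, -0.65 and -0.34 at 9 h. All 9 later arrays lay above the 0.5 h arrays, and the later times overlapped each other. It rose at 6 h by 0.37 (SE 0.10, limma adjusted p = 0.0353) and at 9 h by 0.41 (limma adjusted p = 0.0111), and differed from 0.5 h by 0.29 at 3 h (limma adjusted p 0.0572, not past the threshold). The 6 h call did not hold without 0.5 h replicates 1 or 3, 3 h replicate 1, or 6 h replicates 1, 2 or 3 (limma adjusted p from 0.0529 to 0.115, differences 0.31 to 0.41). A fit of these 2 times alone also ended it (0.37, limma adjusted p 0.0648). At 9 h the difference was 0.29 under median scaling (limma adjusted p 0.0589), 0.33 without background subtraction (0.0539) and 0.33 under normexp with a capped local background (0.0723), and passed under none of them. The muscle-type and platelet-type subunits, Pfkm and Pfkp, differed from 0.5 h by between -0.17 and 0.09 and did not pass.

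The bifunctional enzymes of the Pfkfb family set the level of fructose 2,6-bisphosphate, the activator of phosphofructokinase. Pfkfb3, the inducible form that most favours glycolysis, had -4.69, -4.81 and -4.51 at 9 h against -5.39, -5.41 and -5.33 at 0.5 h. At 3 h it had -5.24, -5.17 and -4.99, and at 6 h -5.02, -5.42 and -5.31, so that the 9 h arrays lay above the other 9. Since it was not well above background at 0.5 h, only a fold over a detection level is given there, 1.13 at 9 h. The limma adjusted p of 0.00172 is from the fit of the measured levels and not of this fold. The fold is the mean of the 9 h arrays against the mean of, for each 0.5 h array, the higher of the probe's own level and the lowest level of a probe well above background. That lowest level is the most lenient choice, so the fold is not a strict lower limit. The call against 0.5 h did not hold once every level was raised to the highest detection level of the 12 arrays (0.07, limma adjusted p 0.284), under normexp with a capped local background (0.20, 0.103) or under quantile scaling (0.29, 0.115), and without background subtraction the difference was -0.15 (0.205). Pfkfb3 was 1.49-fold higher at 9 h than at 6 h (log2 difference 0.58, SE 0.12, limma adjusted p = 0.0045) and 1.37-fold higher than at 3 h (0.46, limma adjusted p = 0.0177). These shrank to 0.07 and 0.03 under quantile and to 0.16 and 0.13 under cyclic loess scaling, where neither passed. At the highest detection level both were 0.07 and did not pass (limma adjusted p 0.32 and 0.331). The difference from 3 h was 0.25 under median scaling (limma adjusted p 0.138). The call against 3 h was also lost without 3 h replicate 1 (0.40, limma adjusted p 0.0692), 3 h replicate 2 (0.44, 0.0557) or 9 h replicate 3 (0.38, 0.0611).

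Pfkfb4 differed from 0.5 h by 0.52 at 9 h without overlap but did not pass (limma adjusted p 0.0824). Pfkfb2 differed by at most 0.04 in all 6 comparisons on its brighter probe. Its dim second probe was well above background on 3 of 3 arrays at each later time and on 0 of 3 at 0.5 h, so no difference from 0.5 h is given for it.

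Lower glycolysis, from aldolase to pyruvate kinase, moved little. Over 9 members and 6 comparisons the 54 differences lay between -0.19 and 0.27, and 2 of them passed, both at 9 h against 0.5 h. Gapdh, the triose phosphate dehydrogenase often used as a reference gene, had 6.40, 6.42 and 6.41 at 0.5 h, 6.58, 6.46 and 6.55 at 3 h, 6.54, 6.63 and 6.45 at 6 h, and 6.69, 6.60 and 6.56 at 9 h. Its 0.5 h arrays lay below all 9 later arrays. The 9 h difference was 0.21 (SE 0.06, limma adjusted p = 0.0315), while the median of all gene names was 0.10. Under median scaling it was 0.09 and did not pass (limma adjusted p 0.39). The Gapdh call was lost without 0.5 h replicates 1, 2 or 3 or 9 h replicates 1 or 2 (limma adjusted p from 0.0626 to 0.0914, differences 0.17 to 0.22). A second Gapdh probe passed at 3, 6 and 9 h, with differences of 0.35, 0.28 and 0.25 (adjusted p 0.00694, 0.0299 and 0.023 over all probes). The rat genome holds Gapdh pseudogenes whose transcripts such probes may share.

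Pkm2, pyruvate kinase of muscle and brain, had 4.64, 4.70 and 4.65 at 0.5 h, 4.87, 4.83 and 4.82 at 3 h, 4.78, 4.90 and 4.75 at 6 h, and 4.98, 4.90 and 4.79 at 9 h. All later arrays lay above those of 0.5 h. Its 9 h difference was 0.23 (SE 0.07, limma adjusted p = 0.0256), which under median scaling was 0.11 (limma adjusted p 0.327). Nor did it pass without background subtraction (0.19, limma adjusted p 0.0886), under normexp with a capped local background (0.17, 0.134) or in a fit of these 2 times alone (0.23, 0.0745). It did not pass without 0.5 h replicates 1 or 3 or 9 h replicates 1 or 2 (limma adjusted p from 0.0663 to 0.0759, differences 0.18 to 0.22). The other 7 members, Aldoa, Aldoc, Tpi1, Pgk1, Pgam1, Eno1 and Eno2, passed in none of the 6 comparisons, and the neuronal enolase Eno2 differed from 0.5 h by 0.20 at 9 h.

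None of the 5 members that handle pyruvate and lactate passed in any comparison. Ldha, the lactate dehydrogenase subunit that hypoxia raises, had 3.63, 3.60 and 3.59 at 0.5 h, 3.85, 3.89 and 3.68 at 3 h, 3.83, 4.0 and 3.78 at 6 h, and 3.88, 3.70 and 3.69 at 9 h. Its 0.5 h arrays lay below all later ones, with differences of 0.20, 0.27 and 0.15 (limma adjusted p 0.111, 0.0641 and 0.197). Pdk1, the kinase that shuts pyruvate dehydrogenase in hypoxia, had -1.06, -1.17 and -1.12 at 3 h against -1.27, -1.34 and -1.32 at 0.5 h, a difference of 0.19 without overlap that did not pass (limma adjusted p 0.0724). It had -1.07, -1.30 and -1.23 at 6 h and -1.29, -1.24 and -1.18 at 9 h, overlapping 0.5 h. Ldhb and Slc16a1 differed from 0.5 h by at most 0.15 in either direction.

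Slc16a3, the lactate exporter of glycolytic muscle fibres and a hypoxia target, had the widest spread of the members and is given for that reason. Its levels were -0.45, -0.56 and -0.16 at 0.5 h, 0.45, 0.49 and -0.55 at 3 h, -0.53, 1.08 and -0.03 at 6 h, and 0.15, 0.33 and -0.21 at 9 h. The 6 h arrays alone ran from -0.53 to 1.08, nearly the range of all 12. The mean level of the 14 skeletal muscle markers on the same arrays was 2.10, 1.81 and 2.90 at 0.5 h, 4.13, 4.11 and 1.98 at 3 h, 2.12, 5.12 and 3.33 at 6 h, and 3.75, 3.45 and 2.16 at 9 h. The array highest for the muscle markers, 6 h replicate 2, was also highest for Slc16a3, and 3 h replicate 3, low for the markers, was among the lowest for it. The summed linear level of the markers was 74.2 to 347 at 3 h, 79.4 to 617 at 6 h and 87.9 to 263 at 9 h, against 65.7 to 146 at 0.5 h, 0 of the 14 were called in any comparison, and none was at 0. Their part in the Slc16a3 values was not tested. On the 6 h arrays replicate 2 was the highest of 3 for 20 of the 39 members, among them Ldha, Gapdh and Pfkfb4. Replicate 1 was the highest for 14 and replicate 3 for 5. The same count was not made over all gene names, and its cause was not tested. Slc2a1 had 3.36 on the 3 h array low in muscle markers and 3.37 and 3.35 on those high in them. The part of muscle RNA in the Slc2a1 values was not tested either.

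**Figure D4:**
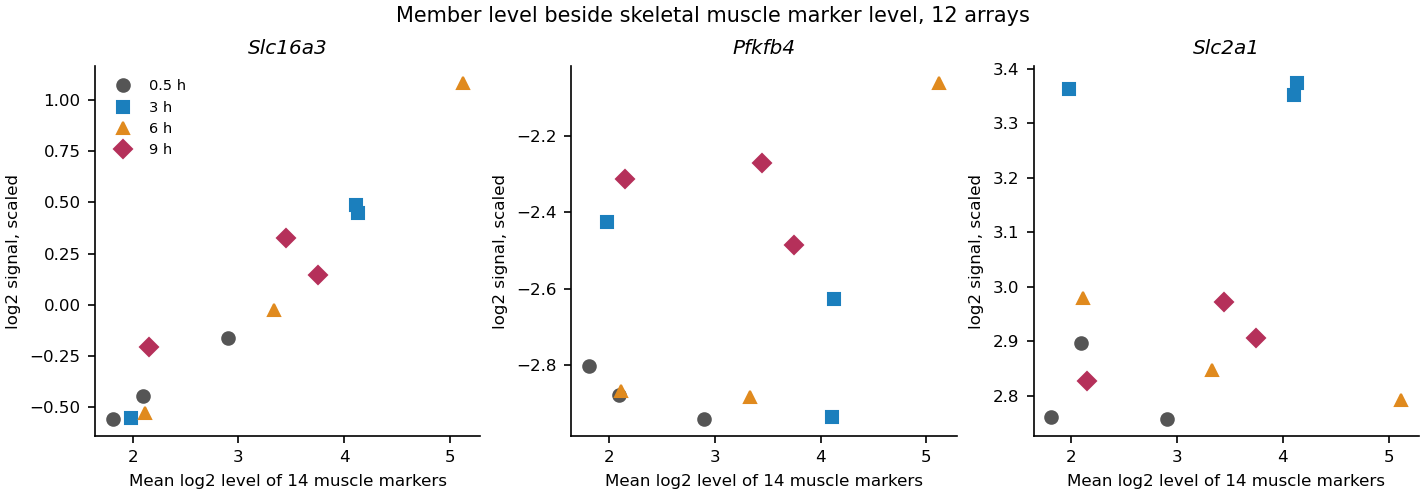
Scaled log2 signal of Slc16a3, Pfkfb4 and Slc2a1 against the mean log2 level of 14 skeletal muscle markers on each of the 12 arrays, with 1 symbol per array and times marked by colour and shape. Slc16a3 goes with the muscle marker level across times, and the 3 Slc2a1 values of 3 h lie at 3.35 to 3.37 at marker levels of 1.98, 4.11 and 4.13. The part of muscle RNA was not tested for any of these genes.

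Among the oxygen sensors and their factors, Hif1a gave opposite answers on its 2 probes. The brighter probe, placed by the scanner files at chr6:96463815-96463874 of the rn4 build, had 3.37, 3.37 and 3.34 at 0.5 h, 3.15, 3.13 and 2.91 at 3 h, 3.18, 3.20 and 3.16 at 6 h, and 3.14, 3.24 and 3.36 at 9 h. The 3 and 6 h arrays lay below those of 0.5 h, and it fell at 3 h by a log2 difference of -0.30 (SE 0.08, limma adjusted p = 0.0225). The dimmer probe, placed at chr6:96463274-96463333 and printed on 10 spots where the brighter has 1, had 0.84, 0.95 and 0.82 at 3 h, 1.06, 0.86 and 0.86 at 6 h and 1.22, 0.89 and 0.96 at 9 h, against 0.59, 0.52 and 0.57 at 0.5 h. It rose at all 3 later times, by 0.31, 0.36 and 0.46 (adjusted p 0.0417, 0.033 and 0.00509 over all probes). The mean of both probes differed by 0.00 at 3 h. The fall on the brighter probe did not hold without 0.5 h replicate 1 (limma adjusted p 0.0572), 0.5 h replicate 2 (0.0593) or 3 h replicate 3 (0.0573), with differences of -0.29, -0.29 and -0.22, nor under median scaling (-0.22, 0.0743). No direction is therefore given for Hif1a as a gene.

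Epas1, the alpha subunit prominent in endothelium, had -1.70, -1.87 and -2.0 at 0.5 h, -1.70, -2.07 and -1.56 at 3 h, -2.01, -1.92 and -1.95 at 6 h, and -1.71, -1.59 and -1.86 at 9 h. The times overlapped apart from 9 h against 6 h, where the difference was 0.24 (limma adjusted p 0.223), and none passed. Arnt, the shared partner, was near background. It had -6.02, -5.68 and -5.79 at 3 h, -5.90, -5.70 and -5.76 at 6 h and -5.33, -5.70 and -5.42 at 9 h, against -6.93, -6.57 and -6.53 at 0.5 h, where no array was well above background. The fit called it higher at 3, 6 and 9 h (0.85, 0.89 and 1.19), but measured against the detection level of the 0.5 h arrays no fold can be given. Without background subtraction the 3 differences were -0.29, -0.33 and -0.10 (limma adjusted p 0.0165, 0.00808 and 0.42), so that Arnt was called lower at 3 and 6 h.

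Of the 3 prolyl hydroxylases, Egln2 and Egln3 rose late. Egln3, the one most strongly raised by hypoxia, had -0.74, -0.79 and -0.64 at 0.5 h, -0.61, -0.64 and -0.57 at 3 h, -0.71, -0.75 and -0.70 at 6 h, and -0.41, -0.50 and -0.41 at 9 h. The 9 h arrays lay above the other 9. The rise was 1.22-fold against 0.5 h (log2 difference 0.28, SE 0.06, limma adjusted p = 0.00506) and 1.21-fold against 6 h (0.28, limma adjusted p = 0.00535). Under median scaling these were 0.16 and 0.06 and did not pass (limma adjusted p 0.099 and 0.55). Egln2 had 2.01, 2.22 and 2.03 at 0.5 h, 2.19, 1.98 and 2.43 at 3 h, 2.03, 2.0 and 1.89 at 6 h, and 2.40, 2.50 and 2.54 at 9 h. Its 9 h arrays lay above those of 0.5 and 6 h and overlapped those of 3 h. It was higher at 9 h than at 0.5 h by 0.40 (SE 0.11, limma adjusted p = 0.0218) and than at 6 h by 0.51 (limma adjusted p = 0.00756). The call against 0.5 h was lost without 0.5 h replicate 1 (0.36, limma adjusted p 0.0657), 0.5 h replicate 3 (0.37, 0.065), 9 h replicate 2 (0.38, 0.0599) or 9 h replicate 3 (0.37, 0.066). Under median scaling the 2 Egln2 differences were 0.28 and 0.29 and did not pass (limma adjusted p 0.0725 and 0.0624). Egln1 differed from 0.5 h by 0.15, 0.08 and 0.21 at 3, 6 and 9 h and did not pass.

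**Figure D5:**
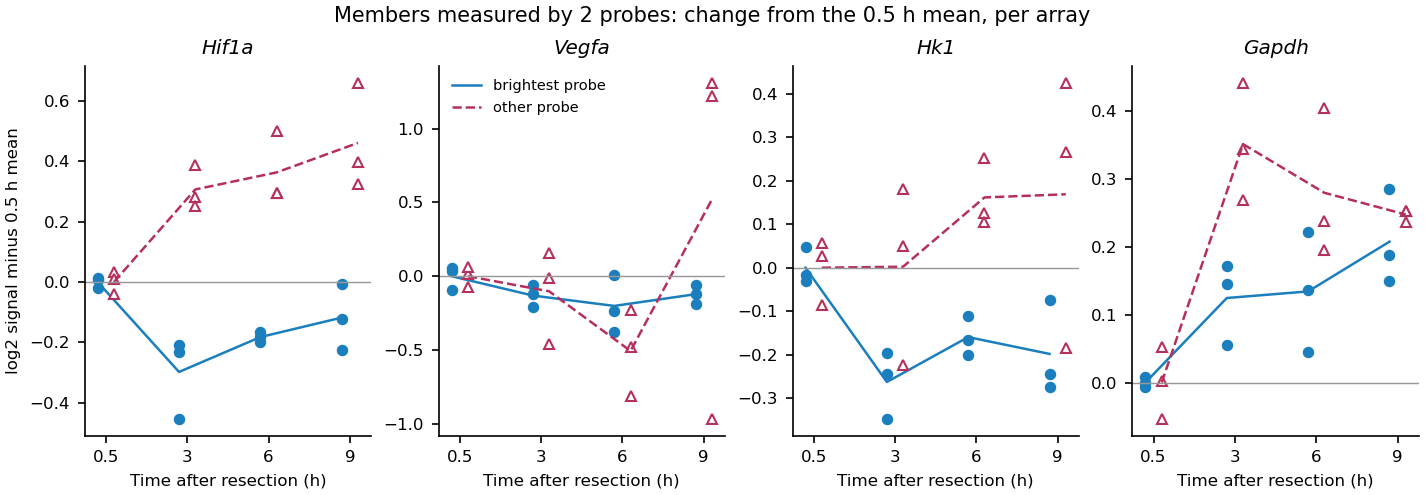
Change from the 0.5 h mean on each array for Hif1a, Vegfa, Hk1 and Gapdh, which each have 2 probes kept by the filter (filled circles and solid line for the probe with the higher mean level, open triangles and dashed line for the other, lines through the means of 3 arrays). The means of the 2 Hif1a probes lie on opposite sides of 0 at each later time, and the second Vegfa probe is split at 9 h, where its levels were -2.71, -0.53 and -0.43.

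Ankrd37, a small ankyrin-repeat protein known as a direct target of hypoxia-inducible factor in human cells, was the member whose calls matched those of Slc2a1. It had -0.82, -0.71 and -0.60 at 0.5 h, -0.23, -0.16 and -0.29 at 3 h, -0.88, -0.81 and -0.83 at 6 h, and -0.59, -0.87 and -0.78 at 9 h. The 3 h arrays lay above the other 9. It was 1.4-fold higher at 3 h than at 0.5 h (log2 difference 0.48, SE 0.08, limma adjusted p = 0.00358). At 6 h it was lower than at 3 h by a log2 difference of -0.61 (limma adjusted p = 0.0015) and at 9 h by -0.52 (limma adjusted p = 0.00194). Normexp background correction ended all 3 calls (limma adjusted p 0.0671, 0.0682 and 0.0704 at differences of 0.52, -0.58 and -0.55).

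The promoters of these 2 genes are shown because their calls matched and both hold the 5-letter core of the hypoxia response element (ACGTG or GCGTG, read on both strands, so also CACGT or CACGC as printed). Sequences are RefSeq's, build GRCr8, the 250 bases before the start of Slc2a1 (chr5:138002272-138002521, plus strand) and of Ankrd37 (chr16:53001257-53001506, plus strand), 5′ to 3′ on the gene's strand with the cores in capitals.
Slc2a1: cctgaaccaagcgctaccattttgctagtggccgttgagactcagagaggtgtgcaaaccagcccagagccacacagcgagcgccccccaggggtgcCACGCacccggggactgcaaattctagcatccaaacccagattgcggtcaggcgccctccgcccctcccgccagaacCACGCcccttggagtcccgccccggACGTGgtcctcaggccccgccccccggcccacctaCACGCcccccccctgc
Ankrd37: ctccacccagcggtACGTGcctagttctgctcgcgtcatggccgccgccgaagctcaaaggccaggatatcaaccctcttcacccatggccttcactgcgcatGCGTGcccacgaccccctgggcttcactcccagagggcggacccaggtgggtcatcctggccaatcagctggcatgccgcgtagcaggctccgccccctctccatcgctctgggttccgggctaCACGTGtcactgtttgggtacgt
The Slc2a1 window holds 4 cores, beginning from 153 to 16 bases before the start. The Ankrd37 window also holds 4 whole cores, from 236 to 22 bases before the start, and the last 2 of these overlap on opposite strands in 1 palindrome, CACGTG. A further Ankrd37 core begins 4 bases before the start and runs past it, so it is neither counted nor printed in capitals. Of the 5 members that rose at 3 h, 4 had a matched promoter, and 3 of these held a core in the 250 bases before the start, with 1 core in Arnt and 0 in Gpi. Arnt is counted although no 0.5 h array measured it well above background. In Gpi a core begins 33 bases past the start, outside the counted window. No share of all genes was counted for the 250 bases alone.

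Car9, the carbonic anhydrase that is among the most used markers of hypoxia, had the largest difference, among the members, between times at which all 3 arrays were well above background. Its levels were -1.79, -1.76 and -2.06 at 0.5 h, -1.78, -1.97 and -1.62 at 3 h, -2.30, -2.06 and -2.32 at 6 h, and -1.26, -1.19 and -0.97 at 9 h. The 9 h arrays lay above the other 9, and 6 h overlapped 0.5 h but not 3 h. Car9 was 1.66-fold higher at 9 h than at 0.5 h (log2 difference 0.73, SE 0.13, limma adjusted p = 0.00228). It was 2.13-fold higher at 9 h than at 6 h (1.09, limma adjusted p = 0.000172) and 1.57-fold higher than at 3 h (0.65, limma adjusted p = 0.0051). The calls against 3 and 6 h held under 28 of 28 alternatives, and that against 0.5 h under 26 of 27, with 0.77 and a limma adjusted p of 0.0595 under normexp. These counts, and that for P4ha1 below, include the series-wide table, which holds the same values as the main fit. At 6 h Car9 differed from 3 h by -0.44, which did not pass (limma adjusted p 0.0567). Of the 8 endothelial markers, Flt1, Cdh5 and Vwf rose at 9 h over 0.5 h (0.77, 0.50 and 0.47) and 0 fell. The mean level of the 8 was -1.07 to -0.84 at 9 h, against -1.33 to -1.16 at 0.5 h, and their summed linear level was 16.9 to 18.7 at 9 h, against 17.7 to 18.4 at 0.5 h. Their part in the 9 h results was not tested.

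P4ha1, listed among the hypoxia targets, encodes a subunit of the enzyme that hydroxylates prolines of collagen. It was the only member called lower at 6 and at 9 h over 0.5 h. It had 1.33, 1.26 and 1.34 at 0.5 h, 1.17, 1.17 and 1.46 at 3 h, 0.95, 0.98 and 0.90 at 6 h, and 1.05, 0.78 and 0.73 at 9 h. The 6 and 9 h arrays lay below those of 0.5 and 3 h. At 9 h it was 0.729 times its 0.5 h level (log2 difference -0.46, SE 0.10, limma adjusted p = 0.00732), a call that held under 27 of 27 alternatives, and it was lower than at 3 h by -0.41 (limma adjusted p = 0.0145). That against 3 h was lost without 9 h replicate 2 (-0.38, limma adjusted p 0.052) or 9 h replicate 3 (-0.36, 0.0517). Its 6 h fall of -0.36 (limma adjusted p = 0.0409) did not pass without any 1 of the 0.5 h or 6 h arrays, 3 h replicate 1 or 9 h replicate 2 (limma adjusted p from 0.052 to 0.118, differences -0.39 to -0.34), nor under median scaling (-0.26, 0.133).

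The promoters of Car9 (chr5:62558774-62559023, plus strand), Egln3 (chr6:77411016-77411265, minus strand), Pfkfb3 (chr17:71944683-71944932, plus strand) and P4ha1 (chr20:27844796-27845045, plus strand), from the same source, are set beside those of Slc2a1 and Ankrd37 because the first 3 lay highest at 9 h and P4ha1 fell there.
Car9: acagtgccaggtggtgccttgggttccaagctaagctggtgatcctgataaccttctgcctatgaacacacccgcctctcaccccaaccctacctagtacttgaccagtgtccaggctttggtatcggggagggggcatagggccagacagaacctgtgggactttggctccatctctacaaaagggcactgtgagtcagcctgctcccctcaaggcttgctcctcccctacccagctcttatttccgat
Egln3: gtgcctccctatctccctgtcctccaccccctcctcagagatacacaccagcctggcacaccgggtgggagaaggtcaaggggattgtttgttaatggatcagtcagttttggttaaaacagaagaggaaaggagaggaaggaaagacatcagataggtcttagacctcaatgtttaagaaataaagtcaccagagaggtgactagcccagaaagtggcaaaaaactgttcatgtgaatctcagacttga
Pfkfb3: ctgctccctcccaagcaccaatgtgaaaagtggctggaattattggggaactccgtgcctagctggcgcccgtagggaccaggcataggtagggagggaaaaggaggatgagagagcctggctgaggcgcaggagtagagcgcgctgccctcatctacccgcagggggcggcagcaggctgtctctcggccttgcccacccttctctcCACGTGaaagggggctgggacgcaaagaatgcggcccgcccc
P4ha1: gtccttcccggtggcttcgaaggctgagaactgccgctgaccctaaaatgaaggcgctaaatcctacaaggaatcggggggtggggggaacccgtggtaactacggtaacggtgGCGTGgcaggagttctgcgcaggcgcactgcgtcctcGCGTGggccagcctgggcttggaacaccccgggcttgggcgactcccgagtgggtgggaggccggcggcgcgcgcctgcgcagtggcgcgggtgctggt
These 250 bases hold 0 cores in Car9 and in Egln3 and 2 in P4ha1, 136 and 99 bases before the start. In Pfkfb3 they hold 2, 42 and 41 bases before the start, which overlap in the palindrome CACGTG. Of the 10 members that rose at 9 h, 9 had a matched promoter. A core lay in the 250 bases before the start in 4 of these (3 in Gapdh, 2 each in Pfkl and Pfkfb3, 1 in Arnt) and in none for the other 5, Car9, Egln3, Egln2, Hk2 and Pkm2. In Car9 a core begins 2 bases past the start, and in P4ha1 a further core 12 bases past it, both outside the printed window. Among the 9, Hk2, Pfkfb3 and Arnt were well above background on none of the 0.5 h arrays. For the 250 bases alone no share of all genes was counted. Promoters of 35 members could be matched, and those of Pgk1, Slc2a3, Bnip3l and Ndrg1 were not. Over 250 bases before and 50 after the first listed start, 22 of the 35 (62.9%) held at least 1 core, beside 42.9% of 27457 genes and 47.0% of 19005 protein-coding genes. For ACGTG the share was 48.6% of the members and 19.7% of all genes, and for GCGTG 45.7% and 31.1%. The palindrome CACGTG, which counts as ACGTG on each strand, was in 17.1% of the members and 6.7% of all genes. Members' windows were also richer in G and C, with a median of 63.0% beside 52.3% of all genes. Many of the members are in the list because they are known targets, so these shares describe the list.

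The remaining targets did not pass in any comparison. Vegfa, the vascular endothelial growth factor, had -1.58, -1.57 and -1.71 at 0.5 h, -1.68, -1.83 and -1.74 at 3 h, -2.0, -1.61 and -1.85 at 6 h, and -1.74, -1.68 and -1.81 at 9 h on its 10-spot probe, with differences from 0.5 h of -0.13, -0.20 and -0.12. Its second probe had -2.71, -0.53 and -0.43 at 9 h, so that 2 of these arrays lay above all others and 1 below, and its difference of 1.03 from 6 h did not pass (adjusted p 0.168 over all probes). Bnip3, a mitophagy receptor, had 4.46, 4.44 and 4.42 at 3 h against 4.08, 4.26 and 4.24 at 0.5 h, without overlap, a difference of 0.25 (limma adjusted p 0.0582). Its 6 h arrays, at 4.33, 4.32 and 4.41, also lay above 0.5 h, and its 9 h arrays, at 4.44, 4.14 and 4.19, overlapped it. Bnip3l, its close relative, the vasodilator peptide gene Adm and the stress gene Ndrg1 differed from 0.5 h by between -0.05 and 0.15.

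Genes next to the members in these pathways were read from lists of other genes, whose counts stand beside 22.7%, 13.4% and 33.4% of all gene names called at 3, 6 and 9 h over 0.5 h. Of 29 other hypoxia-induced genes tested, 3 rose and 2 fell at 3 h, 0 rose and 3 fell at 6 h, and 5 rose and 0 fell at 9 h, each against 0.5 h. The share of these 29 was below that of all gene names at each of the 3 times. Nos2, the inducible nitric oxide synthase, is counted at each time, but 0 of 3 arrays measured it above background at 0.5, 3 and 6 h, so its differences are not given. Ddit4, a brake on mTOR signalling, Angptl4, an inhibitor of lipoprotein lipase, and Mxi1, a Max partner, rose at 3 h by 0.72, 0.67 and 0.50 (limma adjusted p 0.00928, 0.00532 and 0.00501) and fell at 6 h against 3 h by -1.22, -0.50 and -0.51. Slc2a1 and Ankrd37 passed in the same 2 comparisons and in the same directions. The 2 of the 29 that fell at 3 h were Nos2 and Kdr. At 6 h against 3 h 1 of the 29 rose and 3 fell, beside 5.93% and 4.45% of all gene names. How many of all gene names passed in both comparisons was not counted. At 9 h Flt1, a receptor of vascular endothelial growth factor, rose by 0.77 (limma adjusted p 0.00091) and Hmox1, heme oxygenase, by 0.51 (limma adjusted p 0.00108). The list of 11 other genes of the hypoxia-inducible factor pathway also held P4ha2, of the collagen enzyme's family, and the clock gene Arntl. Of these 11, 2 rose and 0 fell at 3 h, 1 rose and 2 fell at 6 h, and 4 rose and 1 fell at 9 h. P4ha2 was the 1 that fell and Arntl 1 of the 4 that rose at 9 h. Hif3a, an alpha subunit of which some forms inhibit the others, was lower at 6 h (-0.58, limma adjusted p 0.0141) and higher at 9 h (0.80, limma adjusted p 0.00116) than at 0.5 h. P4ha2, a relative of P4ha1, fell at 9 h by -0.46 (limma adjusted p 0.000794).

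Other steps of carbohydrate use had members in both directions, to be read beside the same shares of all gene names. Of 15 other glycolysis enzymes, 2 rose and 0 fell at 3 h over 0.5 h, Bpgm, which makes 2,3-bisphosphoglycerate, by 0.32 (limma adjusted p 0.042) and Minpp1, an inositol polyphosphate phosphatase, by 0.18 (limma adjusted p 0.0258). At 6 h 1 of them rose and 0 fell, Minpp1 again by 0.18 (limma adjusted p 0.0419). Among 11 genes of pyruvate entry, 2 rose and 1 fell at 3 h, 1 rose and 1 fell at 6 h, and 2 rose and 3 fell at 9 h. Pdk4, a kinase that inhibits pyruvate dehydrogenase, is counted among those that rose at 3 h, but 0 of 3 arrays at 0.5 h measured it above background, and no difference is given. Pdha1, the catalytic subunit of pyruvate dehydrogenase, fell at 3 h by -0.53 (limma adjusted p 0.0012) and was lower at 9 h by -0.44 (limma adjusted p 0.00214), while Pdk2, a related kinase, rose at 3 and 6 h by 0.28 and 0.31. Among 12 glycogen genes, 3 rose and 3 fell at 9 h, with Ppp1r3c and Ppp1r3b, which bring a phosphatase to glycogen, higher by 0.72 and 0.63 (limma adjusted p 0.00118 and 0.000605) and Pygl, liver glycogen phosphorylase, lower by -0.53 (limma adjusted p 0.00607). Of 9 other sugar and lactate carriers, Slc2a10 rose at 9 h by 1.38 (limma adjusted p 0.00263). Of 7 pentose phosphate enzymes, 2 rose and 2 fell at 3 h, 0 rose and 2 fell at 6 h, and 1 rose and 0 fell at 9 h.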

How the data were processed

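Processed signal intensity (gProcessedSignal) of 12 1-colour Agilent rat arrays was deposited by the authors as scanner text files, made with Feature Extraction 10.5.1.1 per the file headers, which subtracts background. The series-wide table held the same values (largest difference 0). A fit of it is counted among the alternatives, although these same values fixed its outcome. Each array held 45018 spots, 43379 of them not controls. Outlier spots (76 to 218 per array) were left out, log2 intensity was centred on each array's 75th percentile (1814 to 2152 units), spots of a probe were averaged, and 34837 probes well above background on every array of at least 1 time were kept. The kept probe with the highest mean stood for a gene name. The 4 times were fitted together with limma 3.58.1 in R 4.3.3, with Benjamini-Hochberg adjustment over 29623 gene names in each of 6 comparisons, and p-values of second probes were adjusted over the 34837 kept probes. The script was tested on simulated data. The number of arrays, 3 a time, limits the precision. Alternatives were normexp background (offset 50) or none, 3 other scalings, 2 other filters, a common detection floor, mean of probes, variance trend, slide or replicate number as a block, only the 2 times compared, each array left out, and, chosen after seeing the data, normexp with local background capped at its 95th percentile and a fit without the 0.5 h arrays. Values on every array are given for 16 members called with arrays that do not overlap and for Hif1a, Epas1, Vegfa, Slc2a1, Hk2, Ldha, Gapdh, Pdk1, Bnip3, Egln3 and Car9 whatever their result, and for Slc16a3, which was chosen after its values were seen. From neighbouring lists and marker lists, up to 3 called genes a comparison are named. The members and lists were chosen with earlier results of these data known. Gene names are those of the array's design. The 9 h result of the list of other glycolysis enzymes is not reported here.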

Additional observations from a re-analysis of the deposited data

How the results depend on the processing

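Of 914 values of the 34 called differences under alternatives, 789 kept direction and call, 119 kept direction but not the call, and 6 turned direction. Among the 789 are the 34 of the series-wide table, which holds the same values as the main fit. Without background subtraction Arnt turned to -0.29, -0.33 and -0.10 at 3, 6 and 9 h against 0.5 h, and at 9 h Hk2 turned to -0.0787 and Pfkfb3 to -0.15, all dim at 0.5 h. Of these, Arnt at 3 and 6 h passed as lower (limma adjusted p 0.0165 and 0.00808). With the mean of probes Hif1a at 3 h turned to 0.0044. The 3 called differences of Arnt and the 3 of Hk2 have no value at the common detection floor. Members called numbered 7, 3 and 11 at 3, 6 and 9 h over 0.5 h, 2 at 6 h over 3 h, 5 at 9 h over 6 h, 6 at 9 h over 3 h and 14 for any time, and the counts below keep this order. Normexp gave 0, 0, 1, 0, 1, 3 and 2, and slide as a random block, with an estimated correlation of -0.255, gave 19, 10, 21, 6, 8, 13 and 26. No background subtraction gave 17 and 11 for the first pair and 5, 8, 12 and 22 for the last 4. Capped normexp gave 7, 4, 8 and 11 from the third on. Median scaling gave 12 and 5 for the first pair, 13 at 9 h over 6 h and 15 at 9 h over 3 h. At 6 h over 0.5 h quantile scaling gave 6, cyclic loess 5 and no filter 5. Trend and robust variance gave 11 at 3 h over 0.5 h and 5 at 6 h over 3 h. Of 35 members above background on 12 arrays, 4 were called at 6 h over 3 h and 3 at 9 h over 6 h, and the common floor gave 3 at 9 h over 6 h. The causes were not tested. With 1 array left out, counts ran from 5 to 9, 1 to 4, 8 to 12, 2 to 3, 4 to 6, 4 to 7 and 11 to 15. Same-numbered arrays did not deviate together (correlations -0.134 to 0.221), and 4 of 12 correlated best with their own number. The replicate block gave 1 at 6 h over 0.5 h, where Pfkl and P4ha1 did not pass, and ended the Gapdh call at 9 h. The fit without 0.5 h arrays kept its 13 calls. At 0.5 h the lower share of probes above background limits dim members.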
